A study of Mus musculus with 4 samples.

Results

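The p53 target genes outside the cyclin-dependent kinase (CDK) inhibitors are 34 mouse genes, taken by symbol from the 51912 Ensembl genes in the deposited tables. They comprise Trp53 itself, its divergent neighbour Wrap53 and 32 genes described as direct p53 targets in feedback, metabolism, repair and death receptor signalling. All 34 symbols matched exactly 1 Ensembl gene, and 33 of them had a mean of at least 1 FPKM in a group and entered the test. Eda2r did not reach that level. FPKM are fragment numbers scaled to gene length and library size, so levels can be set side by side between genes.

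The RNA was taken from LT-HSCs of mice, the rare and mostly dormant stem cells at the root of blood formation. They were sorted on the markers LSK (low lineage markers, Sca1 and Kit present), CD34- and FLk2-. There were 2 Fam122a KO libraries and 2 wild-type (WT) libraries, all of strain C57BL/6 at 8 to 12 weeks of age, and each was a pool of 3 animals. The labels do not say how or in which cells Fam122a was deleted. The study's question was which genes Fam122a regulates in these cells. Its protein is known to block the phosphatase PP2A.

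p53 is a transcription factor that is kept low by the ubiquitin ligase MDM2 and stabilised by DNA damage and other stress. It then switches on genes that stop division, repair DNA, dampen growth signals or kill the cell, and MDM2 itself, which closes a negative feedback loop. In blood stem cells p53 is known to help hold quiescence and to remove damaged cells. Cyclin G1, the product of the p53 target Ccng1, is known to recruit PP2A to MDM2.

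WT replicate 2 was unlike the rest and is shown separately. Over the 19201 genes tested, its log2 values had a Pearson correlation of -0.07 with each KO library and 0.20 with WT replicate 1, against 0.96 between the KO libraries. Unannotated MSTRG loci held 53.9% of its summed FPKM, against 1.74% and 1.81% in the KO libraries and 9.14% in WT replicate 1. Steps in the low values implied 6760000 and 5900000 fragments in the KO libraries, 4240000 in WT replicate 1 and 2540000 in WT replicate 2. Fam122a was listed at 0 in both KO libraries, where 3 fragments would have given 0.71 and 0.81 FPKM, against 18.4 FPKM in WT replicate 1 and 7.46 FPKM in WT replicate 2. The 8 LT-HSC markers summed to 474 and 479 FPKM in KO and 503 FPKM in WT replicate 1, with none at 0, and to 357 FPKM in WT replicate 2, where Procr and Ly6a were at 0. Transcripts of mature blood cells were abundant as well. The 7 neutrophil markers summed to 70463 and 61553 FPKM in KO and 164997 FPKM in WT replicate 1, the 7 erythroid markers to 59410 and 79052 FPKM in KO and 51432 FPKM in WT replicate 1, and the 7 B cell markers to 1197 and 1893 FPKM in KO and 216 FPKM in WT replicate 1. The 4 monocyte and macrophage markers summed to 2649 and 1882 FPKM in KO and 3442 FPKM in WT replicate 1, and the 4 T and NK cell markers to 387 and 309 FPKM in KO and 635 FPKM in WT replicate 1. The 3 megakaryocyte markers summed to 72.7 and 51.1 FPKM in KO and 128 FPKM in WT replicate 1, and Cd34 and Flt3, which the sort should leave out, to 124 and 86.8 FPKM in KO and 205 FPKM in WT replicate 1. No marker of these lists was at 0 in these 3 libraries. The LT-HSC sums hold both directions, such as Tek (4.43 and 2.74 FPKM in KO, 41.5 FPKM in WT replicate 1) and Kit (93.5 and 129 FPKM in KO, 81.7 FPKM in WT replicate 1). The other sums follow their most abundant genes, and some markers went against their sum. Csf1r, Adgre1, Cd4, Cd8a and Itga2b were higher in both KO libraries than in WT replicate 1, and Ms4a1 was lower. The part of such cells in the differences below was not tested, and fewer cells of a type cannot be told apart from less RNA per cell.

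Among the p53 targets, Tap1, a gene of antigen presentation, rose in Fam122a KO relative to WT replicate 1. Of the 33 members tested, 1 was called higher and 1 lower at a limma adjusted p under 0.05, against 1.90% and 20.1% of all 19201 genes. The lower call is Zmat3, a gene of RNA splicing at low level, which entered the test through WT replicate 1 alone and lost its call in most other settings, so nothing is read from it. The lower share is set in part by the filter, because all 2170 genes tested that were at 0 in both KO libraries had no spread there and all were called lower. There were 15 members within 0.35 of WT replicate 1 on the log2 scale, among them Trp53, Mdm2, Btg2, Apaf1, Xpc and Sesn1. Another 6 lay more than 0.9 above it, namely Perp, Ddit4, Fbxw7, Tap1, Wrap53 and Plk2, and of these Tap1 alone passed. These counts hold for the values as deposited. With each library centred on its median, the genes named from Trp53 to Sesn1 lay 0.34 (Sesn1) to 0.49 (Xpc) above WT replicate 1, without a call. The median of all genes tested was then 0.15.

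As a list, the members had a median log2 difference of 0.09, with 22 of 33 above 0. The median over all genes tested was -0.19, with 42.5% above 0. Among genes with a group mean of at least 5 FPKM the member median was closer to that of the rest. There the medians were 0.12 for 27 members and 0.06 for all genes. The shares above 0 stayed apart, at 20 of 27 members and 52.9% of all genes. At that filter 1 member, Tap1, rose and 0 fell, against 0.611% and 9.68% of 12431 genes. Both KO libraries lay above WT replicate 1 for 18 of the 33 members and below it for 10, against 36.0% and 51.6% of all genes tested. Among genes above 0 in every fitted library, which include all 33 members, these shares were 44.1% and 41.6%. Scaling the libraries to equal Ensembl totals moved the median of all genes by 0.24, and centring each library on its median by 0.34. Polk changed direction under both scalings, and Ccng1 and Dcxr under centring. Centring also gave calls for 6 higher members (Wrap53, Plk2, Fbxw7, Ddit4, Perp and Tap1) and 1 lower (Zmat3), against 18.3% and 26.4% of all genes, so the balance of higher and lower calls rests on the scaling.

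The spread in these tests came from the KO pair, and the single WT library was assumed to vary like it. With all 4 libraries limma called 0 of 33 members in either direction (1 higher and 0 lower at an unadjusted p under 0.05), and 0% of 23454 genes.

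**Figure D1:**
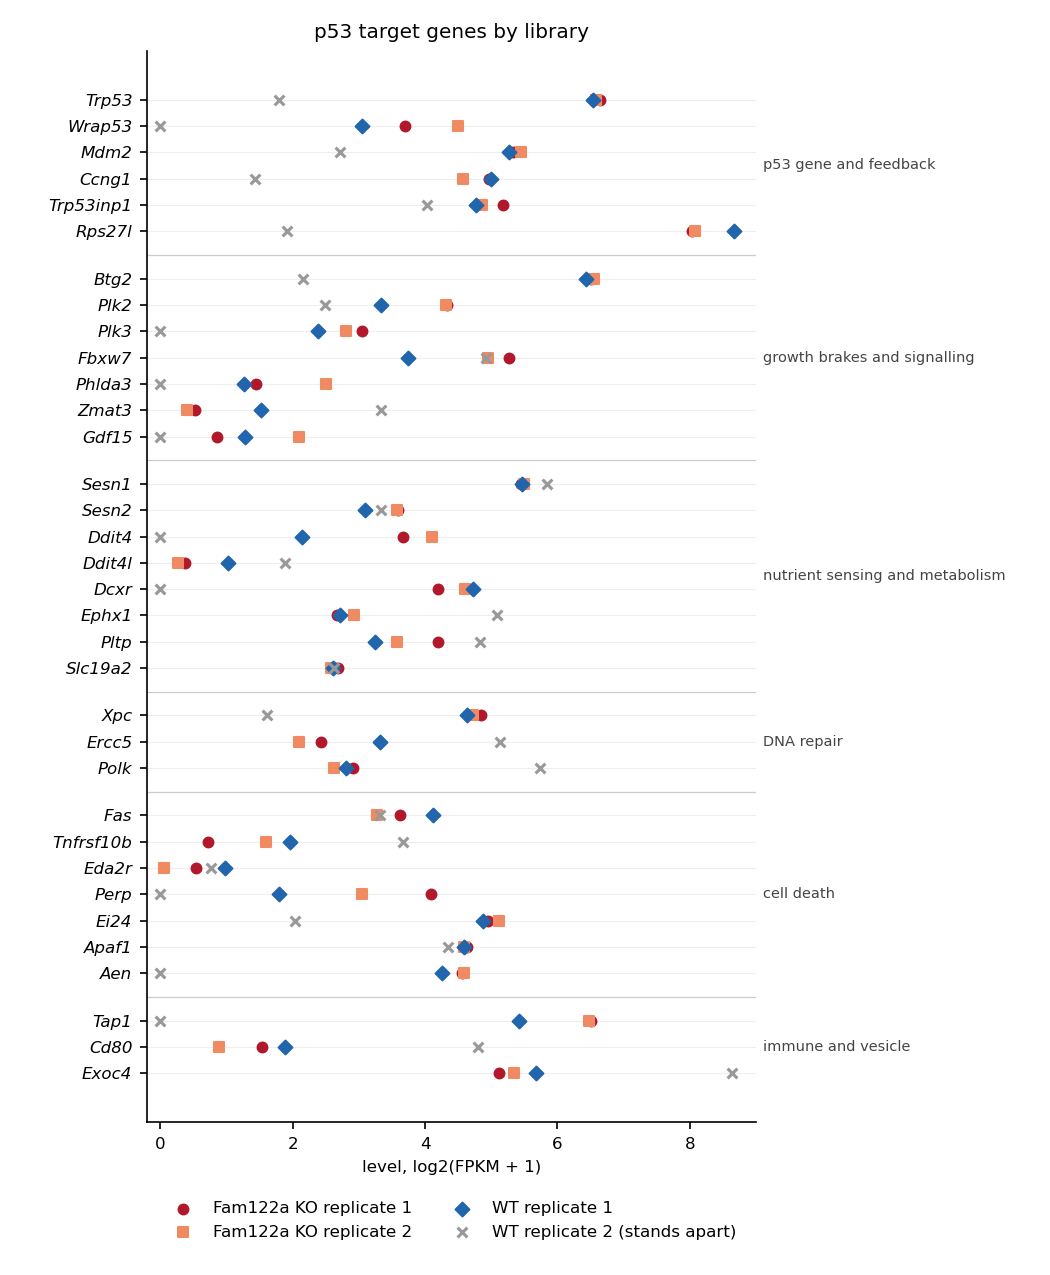
Levels of the 34 p53 target genes as log2(FPKM + 1) in each library, 1 row a gene and 1 symbol a library, grouped by role. The KO and WT replicate 1 symbols lie close in rows such as Trp53 (99.4 and 94.4 FPKM in KO, 91.8 FPKM in WT replicate 1), and the crosses of WT replicate 2 scatter away from them.

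Of the p53 gene and its feedback partners none passed, against 1.90% called higher and 20.1% lower of all genes. Trp53 and Mdm2 lay within 0.2 of WT replicate 1 on the log2 scale. Trp53 (ENSMUSG00000059552, GRCm38 chr11:69580359-69591873, plus strand) was at 99.4 and 94.4 FPKM in KO, against 91.8 FPKM in WT replicate 1. Mdm2, the ligase that degrades p53, was at 39.2 and 42.7 FPKM in KO, against 37.5 FPKM in WT replicate 1. Both KO libraries were slightly above WT replicate 1 for both genes. The differences were 0.08 for Trp53 (95% interval -0.24 to 0.40, limma adjusted p = 0.472) and 0.12 for Mdm2 (95% interval -0.35 to 0.59, limma adjusted p = 0.451). They were 0.31 and 0.35 with equal totals and 0.41 and 0.46 with centring, without a call. Ccng1 was at 30.3 and 22.7 FPKM in KO and 30.9 FPKM in WT replicate 1. The KO libraries differed from each other by 0.40 on the log2 scale for Ccng1, more than the fitted difference of -0.23. Trp53inp1, a stress protein that promotes p53 activity and autophagy, was at 35.1 and 28.0 FPKM in KO and 26.4 FPKM in WT replicate 1.

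Rps27l, a ribosomal protein paralogue that binds MDM2, had the highest level of the members. It was at 262 and 270 FPKM in KO, against 404 FPKM in WT replicate 1. Both KO libraries were lower, by 0.60 on the log2 scale (SE 0.06), which did not pass (limma adjusted p = 0.0643). The difference was -0.37 with equal totals (limma adjusted p = 0.118) and -0.26 with centring (0.318), and over the settings of these libraries the adjusted p ranged from 0.0450 without a filter to 0.318. In WT replicate 2 it was at 2.79 FPKM.

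Wrap53, which encodes a protein that carries telomerase RNA to Cajal bodies, lies head to head with Trp53 on the opposite strand. In the annotation 103 bases separate the genes, so their promoters share sequence. Wrap53 was at 11.9 and 21.5 FPKM in KO, against 7.27 FPKM in WT replicate 1, and was listed at 0 in WT replicate 2. Its difference of 1.05 (SE 0.54) did not pass (limma adjusted p = 0.316), and the KO libraries themselves differed by 0.80. The Trp53 promoter window of RefSeq (GRCm38.p6, chr11:69580109-69580408, plus strand, 250 bases before to 50 after the start) shares 208 bases with a Wrap53 window, and is shown because the pair sits side by side with unlike values. The capitals mark a p53 decamer, the 10-base unit that p53 is known to bind in pairs.

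Trp53: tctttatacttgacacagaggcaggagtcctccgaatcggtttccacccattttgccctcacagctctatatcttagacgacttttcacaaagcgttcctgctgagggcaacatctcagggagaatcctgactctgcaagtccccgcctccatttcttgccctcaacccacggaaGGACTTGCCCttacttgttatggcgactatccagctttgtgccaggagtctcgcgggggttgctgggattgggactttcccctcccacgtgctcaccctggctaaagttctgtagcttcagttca

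The decamer was searched by exact match in all promoter windows of that table. The reverse complement of the motif is the motif itself, so 1 pass covers both strands. Windows were given for 29 of the 34 members, and 11 of these genes (37.9%) held at least 1 decamer, against 9.55% of 27025 genes with a window. No window was given for Trp53inp1, Zmat3, Xpc, Tnfrsf10b and Perp. The following 30-base stretches are shown because they carry the motif in the members other than Trp53 and Wrap53, whose decamer is the same 10 bases. Each reads along the gene's own strand, with the decamer in capitals.

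Mdm2, chr10:117710925-117710954, minus strand: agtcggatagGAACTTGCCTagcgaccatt
Ccng1, chr11:40755452-40755481, minus strand: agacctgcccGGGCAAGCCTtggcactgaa
Rps27l, chr9:66946193-66946222, plus strand: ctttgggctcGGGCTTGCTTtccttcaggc
Rps27l, chr9:66946296-66946325, plus strand: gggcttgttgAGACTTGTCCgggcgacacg
Sesn1, chr10:41887256-41887285, plus strand: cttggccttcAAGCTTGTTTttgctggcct
Ddit4l, chr3:137623572-137623601, plus strand: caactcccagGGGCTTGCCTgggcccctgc
Polk, chr13:96519399-96519428, minus strand: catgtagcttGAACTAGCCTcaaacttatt
Ei24, chr9:36797325-36797354, minus strand: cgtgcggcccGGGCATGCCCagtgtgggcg
Aen, chr7:78895927-78895956, plus strand: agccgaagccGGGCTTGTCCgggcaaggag
Exoc4, chr6:33248915-33248944, plus strand: tttattgtccAGGCATGCCCgggaccggca

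The differences in KO were then set beside the motif, as a description. The 11 members with a decamer had a median log2 difference of 0.00, from -0.71 for Ddit4l to 1.05 for Wrap53, and 6 lay above 0. The 17 tested members with a window and no decamer had a median of 0.19, from -1.05 for Ercc5 to 1.75 for Ddit4, and 13 lay above 0. A match is a run of letters and not a shown binding site, and many p53 sites are known to lie in introns outside these windows.

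**Figure D2:**
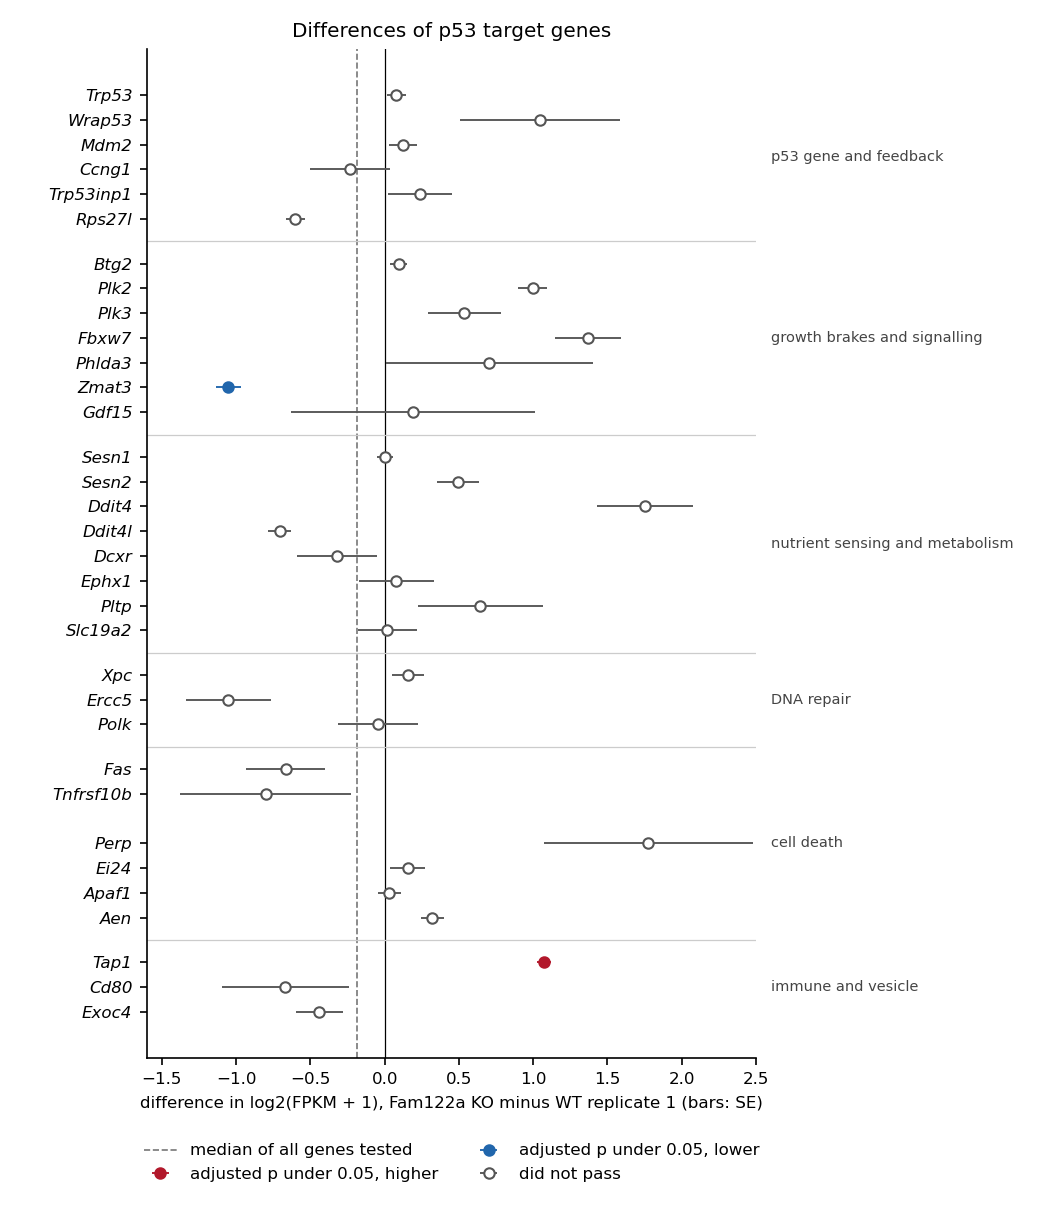
Difference in log2(FPKM + 1) of the 33 members tested, Fam122a KO minus WT replicate 1, with SE bars; filled symbols passed an adjusted p of 0.05 and the dashed line is the median of all genes tested (-0.19). Tap1 at 1.07 and Zmat3 at -1.05 are the filled symbols, and most open symbols of the feedback and repair genes lie near 0.

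Among the 7 growth brakes, 6 lay above 0, against 42.5% of all genes, and 0 were called higher. The 1 lower call, against 20.1% of all genes, is that of Zmat3. Among genes above 0 in every fitted library, which include these 7, 51.3% had a difference above 0. Plk2, a polo-like kinase induced by stress, was at 19.2 and 19.0 FPKM in KO, against 9.06 FPKM in WT replicate 1. The KO libraries were about equal and both higher (95% interval of the log2 difference 0.51 to 1.49), which did not pass (limma adjusted p = 0.0615). Over the settings of these libraries its limma adjusted p ranged from 0.0142 with centring to 0.106 at the 5 FPKM filter. Plk2 also passed without a filter (limma adjusted p = 0.0251) and without the intensity trend (0.0234). Fbxw7, the substrate receptor of a ubiquitin ligase that removes cyclin E and MYC and is known to keep blood stem cells quiescent, was at 37.7 and 30.0 FPKM in KO, against 12.4 FPKM in WT replicate 1. Its difference of 1.37 (SE 0.22) did not pass (limma adjusted p = 0.102). When genes at 0 in any fitted library were left out, a setting chosen after seeing the data, Fbxw7 rose (limma adjusted p = 0.0409). In that setting 3.64% of 15294 genes rose and 11.5% fell, and 2 members, Tap1 and Fbxw7, rose and 0 fell. Fbxw7 was at 29.4 FPKM in WT replicate 2, close to the KO values. The gene spans 23.3 times its exonic length, a ratio that levels in WT replicate 2 followed, as given below.

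Btg2, an antiproliferative gene that recruits a deadenylase, had 89.6 and 93.2 FPKM in KO and 85.5 FPKM in WT replicate 1. With 1 annotated transcript, these values correspond to about 1522, 1382 and 911 fragments, so counting error was small beside the level. The difference was 0.09 (95% interval -0.19 to 0.38), and 0.43 with centring, without a call. Plk3, another polo-like kinase, was at 7.23 and 5.96 FPKM in KO and 4.22 FPKM in WT replicate 1 (difference 0.54, SE 0.24). Part of Plk3 overlaps an exon of Tctex1d4 on the opposite strand over 84 bases, and the kit does not mark strand.

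Zmat3, an RNA-binding zinc finger gene that acts in splicing, was at 0.44 and 0.32 FPKM in KO, against 1.86 FPKM in WT replicate 1. Its difference was -1.05 on the log2 scale (SE 0.08, limma adjusted p = 0.0483). It passed the level filter through WT replicate 1 alone. Its limma adjusted p lay between 0.0510 and 0.0961 in 6 other settings of the same libraries, among them equal totals and a pseudocount of 0.1, and was 0.415 with all 4 libraries. WT replicate 2 had 9.07 FPKM, the highest value of Zmat3. Ddit4l, which resembles Ddit4, was at 0.30 and 0.20 FPKM in KO and 1.04 FPKM in WT replicate 1. It too passed the level filter through WT replicate 1 alone, so nothing is read from its order.

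Phlda3, which keeps the kinase AKT off the membrane, and Gdf15, a secreted stress factor, were low and varied between the KO libraries. Phlda3 was at 1.73 and 4.65 FPKM in KO and 1.41 FPKM in WT replicate 1. Gdf15 was at 0.81 and 3.29 FPKM in KO and 1.44 FPKM in WT replicate 1, so the KO libraries lay on both sides of it. Both genes differed by more than 1 on the log2 scale between the KO libraries.

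Of the genes that restrain mTORC1, the growth kinase complex, none passed, against 1.90% called higher and 20.1% lower of all genes. Ddit4 and Sesn2 lay above WT replicate 1 in both KO libraries, and Sesn1 on both sides of it. Ddit4l lay below it, at low level and with the filter limit given above. Ddit4, the stress gene also known as REDD1, was at 11.8 and 16.3 FPKM in KO, against 3.41 FPKM in WT replicate 1, and was listed at 0 in WT replicate 2. These values correspond to about 121 and 146 fragments in KO and 22 in WT replicate 1. The exact Poisson 95% intervals cover counting error only. They began at 9.74 and 13.7 FPKM in KO and ended at 5.15 FPKM in WT replicate 1, without overlap. Those of Sesn2 and Perp did not overlap either, and those of Btg2 did. No share over all genes was computed, so nothing is read from the lack of overlap. The difference of Ddit4, 1.75 (SE 0.32), did not pass (limma adjusted p = 0.117).

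Sesn2 was at 11.1 and 10.9 FPKM in KO, against 7.52 FPKM in WT replicate 1. Its difference was 0.49 (SE 0.14, limma adjusted p = 0.180). Sesn1 was at 42.9 and 44.0 FPKM in KO and 43.3 FPKM in WT replicate 1, a difference of 0.00 (95% interval -0.27 to 0.28). With centring the difference was 0.34, without a call. The sestrins are known as amino acid sensors that hold back mTORC1.

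The metabolic targets showed no shared direction. Dcxr, a carbonyl reductase, was at 17.4 and 23.3 FPKM in KO and 25.4 FPKM in WT replicate 1. Ephx1, the microsomal epoxide hydrolase, was at 5.36 and 6.63 FPKM in KO and 5.60 FPKM in WT replicate 1. Ephx1 shares 72 exonic bases with the pseudogene Gm36961 on the same strand. Slc19a2, a thiamine transporter, was at 5.41 and 4.95 FPKM in KO and 5.10 FPKM in WT replicate 1, and had the same level in WT replicate 2 (5.16 FPKM). The KO values lay on both sides of WT replicate 1 for Ephx1 and Slc19a2. Pltp, a phospholipid transfer protein, was at 17.3 and 11.0 FPKM in KO and 8.46 FPKM in WT replicate 1 (difference 0.64, SE 0.42). It shares 495 exonic bases with Ctsa on the opposite strand. Ctsa was at 130 and 121 FPKM in KO and 91.0 FPKM in WT replicate 1. The part of Ctsa reads in the Pltp values was not tested.

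The repair genes did not pass in either direction, against 1.90% called higher and 20.1% lower of all genes. Xpc, which recognises bulky DNA lesions, was at 27.8 and 25.4 FPKM in KO and 23.7 FPKM in WT replicate 1. Ercc5, the nuclease that cuts on one side of such lesions, was at 4.39 and 3.29 FPKM in KO, against 8.97 FPKM in WT replicate 1. Both KO libraries were lower, by 1.05 on the log2 scale (SE 0.29, limma adjusted p = 0.169). In WT replicate 2 Ercc5 was at 34.1 FPKM. Polk, a polymerase that copies past lesions, was at 6.55 and 5.14 FPKM in KO and 6.03 FPKM in WT replicate 1. WT replicate 2 had 52.5 FPKM of Polk.

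Of the 7 cell death genes 6 were tested and 0 passed in either direction, against 1.90% called higher and 20.1% lower of all genes. Of their fitted differences 4 lay above 0 and 2 below. The share above 0 was 42.5% of all genes tested and 51.3% of genes above 0 in every fitted library. Fas was at 11.4 and 8.64 FPKM in KO, against 16.3 FPKM in WT replicate 1 (difference -0.67, SE 0.26, limma adjusted p = 0.246). Tnfrsf10b, the mouse TRAIL receptor gene, was at 0.65 and 2.02 FPKM in KO and 2.89 FPKM in WT replicate 1. Eda2r, the receptor for ectodysplasin A2, was at 0.45 and 0.04 FPKM in KO and 0.98 FPKM in WT replicate 1, just under the filter. Of the 3 receptors, Fas alone exceeded 5 FPKM in these libraries.

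Perp, a membrane protein gene of p53-dependent death and of desmosomes, was at 16.0 and 7.29 FPKM in KO, against 2.47 FPKM in WT replicate 1. Both KO libraries were higher, at about 186 and 74 fragments in KO and 18 in WT replicate 1. The KO libraries differed by 1.04 on the log2 scale, and the difference of 1.77 (SE 0.70) did not pass (limma adjusted p = 0.245). Apaf1, the scaffold of the apoptosome, was at 24.0 and 23.1 FPKM in KO and 23.0 FPKM in WT replicate 1. Ei24, an endoplasmic reticulum protein of death and autophagy, was at 30.0 and 33.6 FPKM in KO and 28.4 FPKM in WT replicate 1. Ei24 shares 324 exonic bases with Gm26787 on the opposite strand. The part of Gm26787 reads in the Ei24 values was not tested. Aen, a nuclease of apoptosis, was at 22.6 and 23.1 FPKM in KO, against 18.1 FPKM in WT replicate 1 (difference 0.32, SE 0.08, limma adjusted p = 0.150).

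Tap1, which encodes a subunit of the peptide pump that loads MHC class I molecules, rose in KO. Tap1 (ENSMUSG00000037321, GRCm38 chr17:34187553-34197225, plus strand) was at 89.6 and 88.5 FPKM in KO, against 41.8 FPKM in WT replicate 1, and was listed at 0 in WT replicate 2. The KO libraries were almost equal and both lay above WT replicate 1, with a ratio of the KO mean to WT replicate 1 of 2.13. The difference was 1.07 (SE 0.04, limma adjusted p = 0.0222). The call was lost when genes needed 1 FPKM in 2 libraries (limma adjusted p = 0.0698) and with all 4 libraries (0.415). The Tap1 promoter window of RefSeq (GRCm38.p6, chr17:34187306-34187605, plus strand) is shown as that of the single member that rose. It held no exact decamer, so it has no capitals.

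Tap1: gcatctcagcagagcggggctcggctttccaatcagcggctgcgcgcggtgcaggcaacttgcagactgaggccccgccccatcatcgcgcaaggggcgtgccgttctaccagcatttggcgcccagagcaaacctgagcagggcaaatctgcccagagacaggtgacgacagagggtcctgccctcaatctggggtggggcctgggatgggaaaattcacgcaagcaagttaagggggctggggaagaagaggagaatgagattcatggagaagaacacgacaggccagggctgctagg

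Tap1 shares 212 exonic bases with Psmb9, an immunoproteasome subunit gene on the opposite strand. Psmb9 was at 123 and 116 FPKM in KO and 82.1 FPKM in WT replicate 1 (difference 0.53, SE 0.07). The part of Psmb9 reads in the Tap1 values was not tested. Cd80, a co-stimulatory surface protein, was at 1.89 and 0.85 FPKM in KO and 2.68 FPKM in WT replicate 1. Exoc4, a subunit of the exocyst that tethers vesicles, was at 33.7 and 39.6 FPKM in KO, against 49.9 FPKM in WT replicate 1 (difference -0.44, SE 0.16, limma adjusted p = 0.222).

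Other genes of the p53 pathway are read against the same shares, 1.90% higher and 20.1% lower over all genes, at which lists of this size hold few higher calls. The 18 regulators of p53 had 17 members tested, of which 0 were called higher and 1, Trp63, lower. Trp63 passed the level filter through WT replicate 1 alone, so its call is a description. Their median difference was 0.32. Trp63, the p63 relative of p53, was at 0.26 FPKM in each KO library, compared with 19.0 FPKM in WT replicate 1 and 192 FPKM in WT replicate 2 (limma adjusted p = 0.00954). Its genomic span is 24.8 times its exonic length. Usp10, a deubiquitinase that stabilises p53, was at 61.5 and 74.4 FPKM in KO, against 22.7 FPKM in WT replicate 1 (1.54, SE 0.18, limma adjusted p = 0.0754). Kat5, an acetyltransferase of the damage response, was at 20.5 and 23.7 FPKM in KO, against 12.4 FPKM in WT replicate 1. Atm, the kinase that signals DNA breaks, was at 8.96 and 5.77 FPKM in KO, against 29.7 FPKM in WT replicate 1 and 41.4 FPKM in WT replicate 2 (limma adjusted p = 0.128). With genes at 0 left out, Usp10 rose (limma adjusted p = 0.0238) and Atm fell (0.0467).

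The 7 targets in the cell cycle and BCL2 families had fitted differences above 0, from 0.00 for Gadd45a to 1.44 for Pidd1 (median 0.41), and 0 passed at the adjusted threshold. Cdkn1a, the p21 CDK inhibitor and best known p53 target, was at 67.9 and 59.8 FPKM in KO, against 26.6 FPKM in WT replicate 1 (1.23, SE 0.13, limma adjusted p = 0.0650). It rose when genes at 0 were left out (limma adjusted p = 0.0288). Bax, a pore-forming death gene, was at 76.3 and 71.6 FPKM in KO, against 48.6 FPKM in WT replicate 1. Pidd1, a platform for caspase-2, was at 10.4 and 18.4 FPKM in KO, against 4.48 FPKM in WT replicate 1. Bbc3, the PUMA gene, was at 10.4 and 9.75 FPKM in KO, against 7.30 FPKM in WT replicate 1. Both KO libraries lay above WT replicate 1 for 5 of the 7 genes. For Gadd45a (62.1 and 47.6 FPKM, against 54.3 FPKM) and Pmaip1 (4.52 and 3.15 FPKM, against 3.61 FPKM) they lay on both sides of it. Of all genes tested 42.5% had a difference above 0. Among genes above 0 in every fitted library, which include these 7, the share was 51.3%.

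A further 10 p53 targets had 8 members tested, of which 6 lay above 0 (median 0.66) and 0 passed at the adjusted threshold. Ddb2, of the damage recognition complex, was at 14.5 and 15.3 FPKM in KO, against 7.90 FPKM in WT replicate 1. Ak1, an adenylate kinase, was at 9.96 and 6.75 FPKM in KO, against 2.09 FPKM in WT replicate 1. Tigar, a regulator of sugar phosphate use, and Ptpn14, a phosphatase, lay below WT replicate 1. Tigar was at 1.05 and 1.24 FPKM in KO and 1.96 FPKM in WT replicate 1. Ptpn14 was at 0.80 and 1.06 FPKM in KO and 1.89 FPKM in WT replicate 1, and passed the level filter through WT replicate 1 alone. The 6 of 8 above 0 stand beside 42.5% of all genes tested. Among genes above 0 in every fitted library the share was 51.3%.

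**Figure D3:**
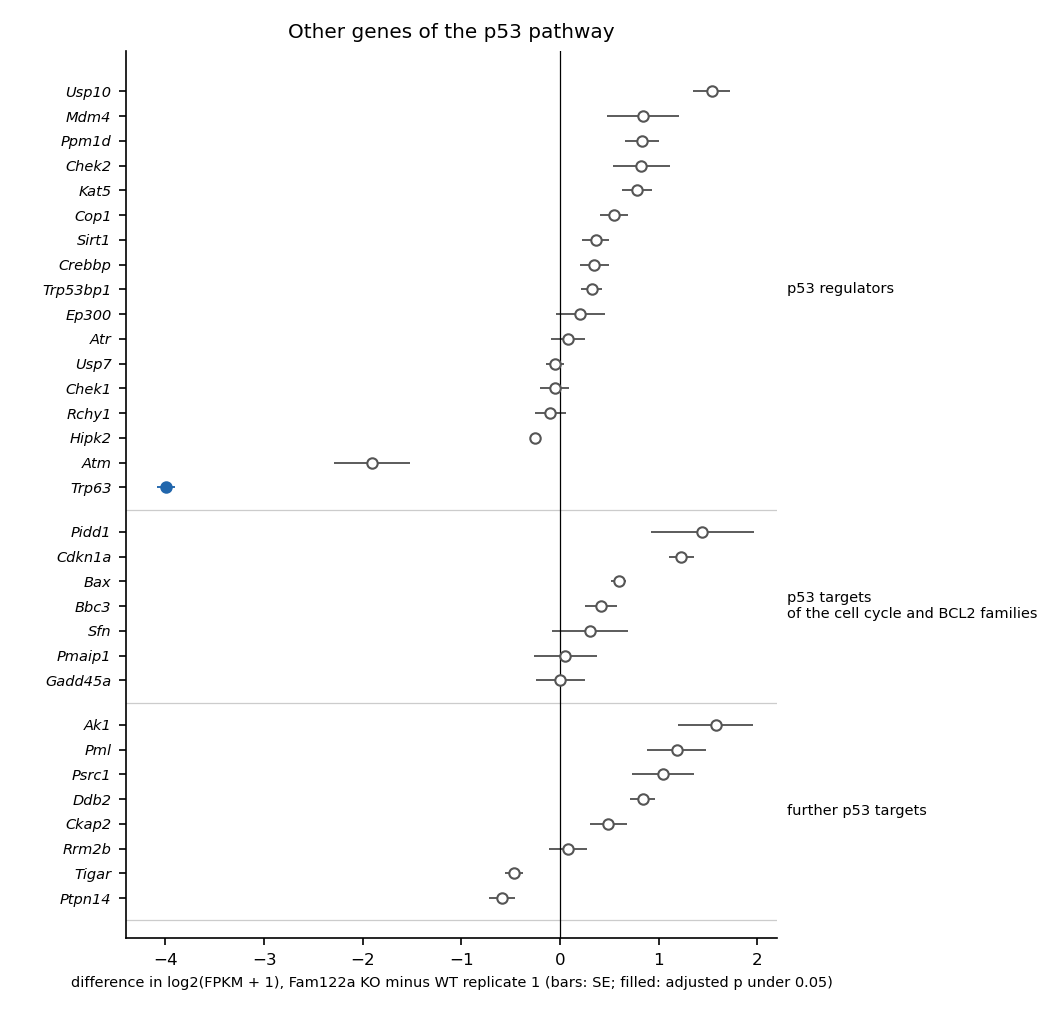
Difference in log2(FPKM + 1) of other genes of the p53 pathway, Fam122a KO minus WT replicate 1, with SE bars; the filled symbol passed an adjusted p of 0.05. Trp63 at -3.99 lies far to the left, and the 7 targets of the cell cycle and BCL2 families lie on or right of 0.

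WT replicate 2 gave the members another order of levels. The log2 levels of the 34 genes had a Pearson correlation of 0.97 between the KO libraries and 0.92 and 0.91 between each KO library and WT replicate 1. With WT replicate 2 it was 0.04 and -0.02 for the KO libraries and 0.16 for WT replicate 1. These values describe the libraries, since the genes share each library and its depth. WT replicate 2 listed 9 members at 0, namely Wrap53, Plk3, Phlda3, Gdf15, Ddit4, Dcxr, Perp, Aen and Tap1. For Tap1 and Dcxr 3 fragments there would have given 0.23 and 1.29 FPKM.

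The levels in WT replicate 2 followed how far a gene stretches along the genome beyond its exons. The ratio of genomic span to exonic length had a Spearman correlation of 0.67 with the level in WT replicate 2 over the 34 genes. With the levels in the KO libraries it was 0.00 and -0.03, and with WT replicate 1 it was 0.03. In the 8 members with a ratio over 10, the median level was 17.7 and 15.9 FPKM in KO, 14.4 FPKM in WT replicate 1 and 31.3 FPKM in WT replicate 2. In the 16 members with a ratio under 4, it was 18.3 and 20.9 FPKM in KO and 13.6 FPKM in WT replicate 1. In WT replicate 2 none of these 16 exceeded 15.3 FPKM and 7 were at 0. Exoc4, with a span 57.3 times its exonic length, was at 397 FPKM in WT replicate 2. In 13 of the 34 genes WT replicate 2 was above WT replicate 1.

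**Figure D4:**
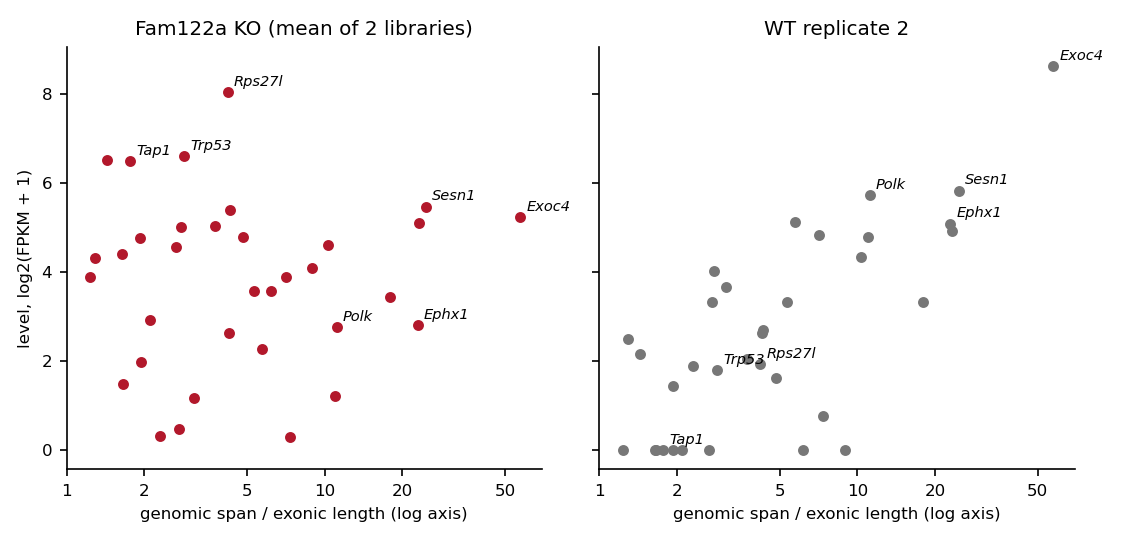
Level of the 34 p53 target genes as log2(FPKM + 1) against genomic span over exonic length (log axis), in Fam122a KO on the left and WT replicate 2 on the right, 1 point a gene. Points rise with span in WT replicate 2, up to Exoc4 (397 FPKM), and show no such order in KO.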

How the data were processed

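Each of the 4 libraries has a deposited table of feature IDs with 1 value each and no column names. The deposited values were read as FPKM, a unit inferred from their steps since the authors' labels name none. In single-exon genes with 1 transcript, between 82.2% and 89.5% of low values lay within 0.1 of a whole number of fragments after removing 230 bases from the length, which gave the implied depths. These depths are estimates. Per the submitters' processing notes, bcl2fastq, STAR 2.7.1a, HISAT2 2.1.0 and the builds GRCm38.p5 and mm10 were used, without roles; which program and annotation made the values is not given in the sources used here. Libraries were made with SMART-Seq v4 from total RNA, per the labels' protocols. Symbols and coordinates came from GENCODE M21 (GRCm38) for 51633 of 51912 Ensembl genes, and 35791 MSTRG loci stayed out of the tests.

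KO replicates 1 and 2 were compared with WT replicate 1 on log2(FPKM + 1), a scale that understates changes at low level. The test was that of limma 3.58.1 in R 4.3.3, with a trend over intensity. A gene entered if the larger group mean reached 1 FPKM. P-values were Benjamini-Hochberg adjusted over all genes and called under 0.05. The labels call the 2 libraries of a group biological replicates, each from 3 pooled animals. All 34 members are named, and of each other pathway list those that passed and the 4 with the smallest p. Gadd45a and the MHC genes were picked with their values in view. Psmb9 and Ctsa are named as overlapping genes. The members, lists and tests were chosen with earlier results of these data known. The fit was tested on simulated data in which the WT library was given the spread of the KO pair. It therefore could not check whether the real WT library varies like that pair. Alternatives covered the library set, block, pseudocount, filter, scaling, trend, subtraction of the WT replicate 2 profile and gene span. Overlaps with other genes were read from the annotation, and promoter sequences are from RefSeq (GRCm38.p6).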

Additional observations from a re-analysis of the deposited data

Results flagged for a closer look

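The unannotated MSTRG loci, 35791 in all, stayed out of the tests. In KO, 9 of them reached 5 FPKM in replicate 1 and in replicate 2 while WT replicate 1 had 0, and they are listed here because they hold signal in data the comparisons leave aside. The opposite pattern was seen at 1509 loci.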

How the results depend on the processing

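Changes are KO minus WT on the log2 scale, with calls at a limma adjusted p under 0.05, 4216 genes and 2 members as reported, and the causes of the shifts were not tested. With all 4 libraries, 0 genes and 0 members passed (125 genes higher and 2594 lower at an unadjusted p under 0.05), the member median was 0.84, and the sign turned for Ccng1 (1.55), Rps27l (2.77), Sesn1 (-0.18), Dcxr (2.04), Ephx1 (-1.11) and Pltp (-0.15). Adding the replicate block gave 0 genes, 0 members and the same differences, and the deviations of same-numbered libraries had a correlation of 0.04 over 23454 genes. With WT replicate 2 so unlike WT replicate 1, this check could not show a shared batch, and the numbers were not taken as pairs. The calls numbered 10026 genes without a filter, 1279 genes and 1 member at 5 FPKM, 221 genes and 0 members with 1 FPKM in 2 libraries (member median 0.12 in both), and 2319 genes above 0 in every library, a filter added after seeing the data. A pseudocount of 0.1 left 1 member. Without a filter 3 members passed, Tap1 and Plk2 higher and Rps27l lower, beside 761 genes higher and 9265 lower of 30258 tested. Without the intensity trend 2 members passed, Tap1 and Plk2, both higher, beside 624 genes higher and 3702 lower of 19201 tested. Equal totals gave 1 member, a median of 0.33 and Polk at 0.15. Centring gave 8591 genes (3519 higher and 5072 lower, against 365 and 3851 as reported), 7 members, a median of 0.43, Ccng1 at 0.11, Dcxr at 0.014 and Polk at 0.29. Subtracting 0.138 of the WT replicate 2 profile gave 2161 genes, a median of 0.24, Trp53 at -0.0077, Polk at 2.77, Cd80 at 1.21 and Exoc4 at 5.23, now called higher (adjusted p = 0.0280, against -0.44 and no call as reported). It also moved Ercc5 to -0.20, Tnfrsf10b to -0.083 and Ephx1 to 1.73, without a call. Genes of short span gave 1939 calls among 8275 genes tested, 1 of 16 members and a member median of 0.17.

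Without WT replicate 1, where WT replicate 2 is the whole WT group, 19107 genes and 22 members passed. That setting tested 24853 genes and 33 members, so a smaller share of the members than of all genes passed. Its single WT library was again assumed to vary like the KO pair. Without a KO replicate no spread is left, so values have no test. Over these omissions of 1 library the member median ranged from 0.072 to 1.48, Ccng1 from -0.43 to 3.33, Rps27l from -0.62 to 6.14, Gdf15 from -0.43 to 1.48, Sesn1 from -0.36 to 0.023, Dcxr from -0.52 to 4.40, Ephx1 from -2.29 to 0.21, Pltp from -0.95 to 0.95, Slc19a2 from -0.036 to 0.072, Polk from -2.97 to 0.10 and Fas from -0.84 to 0.12. In the 3 fitted libraries 7 members stayed below 5 FPKM, and the part of depth in their values was not tested.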

Other observations

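Beside Tap1, other genes of MHC class I presentation were read after their values were seen. Tap2, the other subunit of the peptide pump, was at 96.4 and 94.5 FPKM in KO, against 51.9 FPKM in WT replicate 1, and rose (log2 difference 0.87, SE 0.05, limma adjusted p = 0.0311). It also rose with genes at 0 left out (limma adjusted p = 0.0379) and did not pass with all 4 libraries (0.415). Tapbp, the bridge between the pump and class I molecules, was at 162 and 146 FPKM in KO, against 94.3 FPKM in WT replicate 1, and did not pass (limma adjusted p = 0.0957). The class I heavy chain genes H2-K1 and H2-D1, which share sequence with related genes and are therefore uncertain, were at 1247 and 1092 FPKM and at 1685 and 1464 FPKM in KO, against 741 and 1065 FPKM in WT replicate 1.

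B2m, the light chain, went the other way, at 2248 and 1866 FPKM in KO and 3229 FPKM in WT replicate 1, as did Nlrc5, the class I transactivator, at 15.1 and 19.2 FPKM in KO and 26.7 FPKM in WT replicate 1. Neither passed. Irf1, an interferon regulator, was at 72.5 and 72.3 FPKM in KO, against 52.5 FPKM in WT replicate 1, and did not pass (limma adjusted p = 0.0599). The immunoproteasome gene Psmb8 was at 353 and 339 FPKM in KO and 328 FPKM in WT replicate 1.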
